A study of Mus musculus with 10 samples.

Results

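The genes described here are those whose expression differed between p27-/- and wild-type (WT) intermediate lobes (ILs) in one direction at both 2 and 7 months of age. The IL is the part of the mouse pituitary made mostly of melanotrophs, endocrine cells that cleave the precursor POMC into melanocyte-stimulating hormone, with a layer of SOX2-positive stem cells lining the cleft. p27, encoded by *Cdkn1b*, is a cyclin-dependent kinase (CDK) inhibitor. It restrains entry into S phase by binding cyclin-CDK complexes, and mice without it develop IL tumours. In the textbook sequence, D cyclins with CDK4 and CDK6 phosphorylate the retinoblastoma protein, which releases E2F factors, and E2F factors then drive cyclin E, the replication machinery and, later, the genes of mitosis.

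RNA was sequenced from dissected ILs of male and female mice, and the table holds 10 libraries: 3 WT and 2 p27null libraries at 2 months, and 2 WT and 3 p27null libraries at 7 months. The p27null animals (p27-/- below) carried the germline *Cdkn1b* tm1Mf allele on a mixed background, the WT animals did not, and the labels give no treatment for any group. Because the allele is germline, every cell type of the lobe lacked p27, and a dissected lobe can hold cells of the neighbouring lobes and of vessels. The study describes the libraries as biological duplicates or triplicates, so p-values measure the spread between animals within these small groups. All values are normalised expression on a log2 scale, as deposited, and the depth behind each value is unknown.

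For each of the 16556 genes tested, out of 39021 in the table, the p27-/- minus WT difference was taken at each age and the 2 differences were averaged. A gene counts as called where the adjusted p lay below 0.05 (limma, moderated test over all 10 libraries, Benjamini-Hochberg over all tested genes, two-sided). The averaged difference was called for 2354 genes (14.2% of those tested), of which 1114 were higher in p27-/- (6.73%) and 1240 lower (7.49%). With libraries rescaled to equal totals without mitochondrially encoded genes, which moved the median difference of all genes to -0.10, 744 calls were higher and 2126 lower. A gene was counted as shifted alike if it was called and, at each age, every p27-/- library lay on the same side of every WT library. This held for 1419 genes (8.57% of those tested), 686 higher in p27-/- (4.14%) and 733 lower (4.43%). The split depended on the scaling: 465 were higher and 1138 lower with the rescaled libraries, and 790 and 621 after quantile normalisation. Since measured values define this set, its counts are descriptions. Without the test, 2173 genes (13.1%) had non-overlapping genotypes in one direction at both ages, and 470 had non-overlapping genotypes in opposite directions. Closest to the threshold were *Nt5c*, inside it with an averaged difference of -0.48 (limma adjusted p = 0.0497), and *Nasp*, outside it with 0.37 (limma adjusted p = 0.05001).

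The number of genes shifted alike depended on single libraries. It was 430 without WT 7-mo replicate 1, 576 without p27-/- 2-mo replicate 1, 663 without p27-/- 2-mo replicate 2 and 2219 without WT 2-mo replicate 3. The averaged contrast called 500, 656 and 745 genes without the first 3 of these libraries, and 1471 without WT 2-mo replicate 2. Of the genes shifted alike, 174 that were higher and 194 that were lower remained called whichever library was left out. Among the called genes described below, the 10 fits with 1 library left out lost 300 calls, of which 71 were lost without WT 7-mo replicate 1, 58 without p27-/- 2-mo replicate 1 and 56 without p27-/- 2-mo replicate 2. The lost calls include those of list members that are counted but not named. A named gene's call that did not hold in all 10 fits is given with the number in which it held, or with the fits that lost it.

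Exonic GC content moved with genotype. Across genes, the Spearman correlation of a library's deviation from the gene means with GC content was 0.0590 to 0.582 in the 5 WT libraries and -0.589 to -0.128 in the 5 p27-/- libraries. The 2 ranges did not overlap, so GC content and genotype cannot be told apart, and the part of the GC trend in the results was not tested beyond the correction given below. The median GC content was 42.6% for the genes that were higher and 54.4% for those that were lower, against 49.2% for all tested genes with a value. In the lowest of 10 equal bins of genes by GC content, 14.5% were shifted alike upward and 0.282% downward, and in the highest bin 0.282% upward and 12.1% downward. After subtraction of each library's GC trend, 211 of the 538 higher genes with a GC value and 223 of the 722 lower ones were still shifted alike, and 523 and 722 of them kept the sign of their difference. Results below are given as deposited, and the corrected adjusted p is added where a gene given below with a call lost it.

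**Figure D1:**
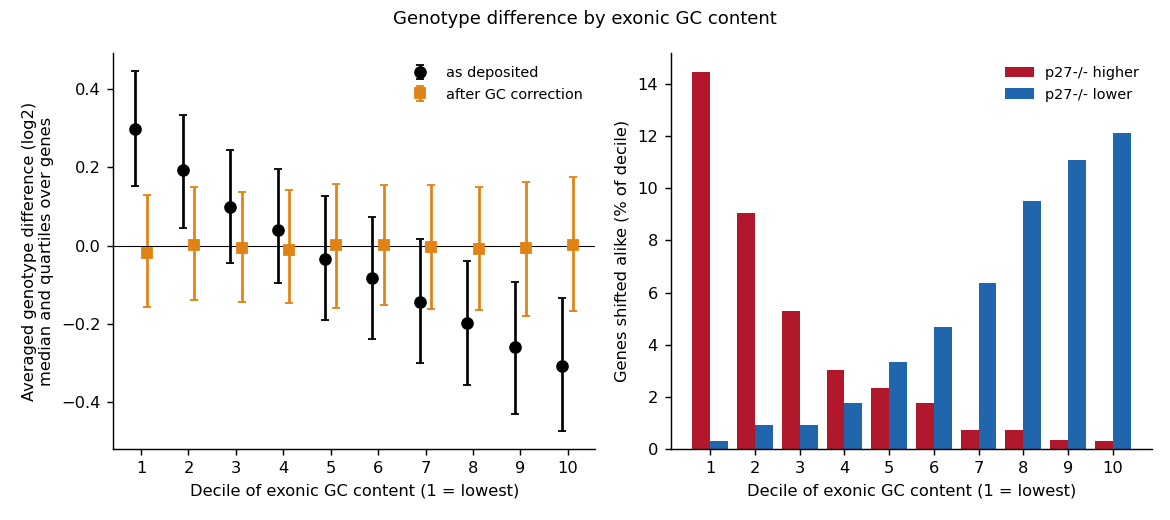
Left, median and quartiles over genes of the averaged p27-/- minus WT difference (log2) in 10 equal bins of genes by exonic GC content, as deposited (black) and after GC correction (orange). Right, percent of genes in each bin shifted alike at both ages (red, p27-/- higher, blue, lower); as deposited the median falls from 0.30 in the lowest bin to -0.31 in the highest, and after correction every median lies within 0.02 of 0.

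The 2 ages did not contribute equally. Among genes shifted alike, the median difference of the higher genes was 0.44 at 2 months and 0.78 at 7 months, and that of the lower genes was -0.49 and -0.70. The difference was larger at 7 months for 604 of 686 higher and 536 of 733 lower genes. The GC correlations of the 2 genotypes also lay farther apart at that age. They were 0.281 and 0.582 in WT against -0.589 to -0.307 in p27-/- libraries at 7 months. At 2 months they were 0.0590 to 0.389 against -0.225 and -0.128. The part of GC content in the larger differences at 7 months was not tested. In 862 of the 1419 the larger difference was at most 2 times the smaller. The genotype by age interaction (limma) was called for 0 genes (0%), with a smallest adjusted p of 0.0658, while 2675 genes (16.2%) passed an unadjusted p of 0.05, among them 244 of those shifted alike (17.2%). Leaving out 1 library gave 0 to 47 calls of the interaction, with the most, 47, without p27-/- 7-mo replicate 3 and 40 without WT 2-mo replicate 1. Differences between the ages for single genes are therefore given as values.

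**Figure D2:**
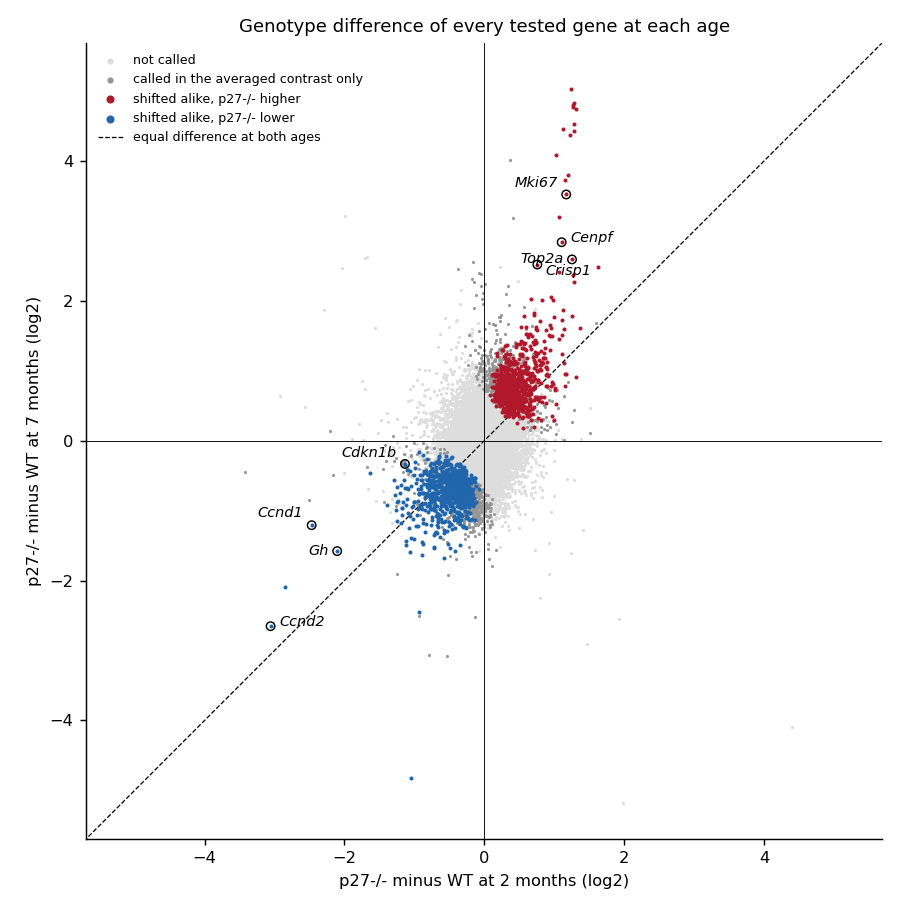
Each point is a tested gene, placed by its p27-/- minus WT difference (log2) at 2 months (horizontal) and at 7 months (vertical). Red and blue points are the 686 higher and 733 lower genes shifted alike, dark grey points are called in the averaged contrast only, and the dashed line marks equal differences; most coloured points lie farther from 0 on the vertical axis.

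*Cdkn1b*, the disrupted gene (ENSMUSG00000003031, GRCm38 chr6:134920401-134925525), was examined first. At 2 months it read 9.33, 9.08 and 8.96 in WT and 7.91 and 8.06 in p27-/- libraries. At 7 months it read 8.57 and 8.75 in WT and 8.43, 8.34 and 8.21 in p27-/- libraries. All p27-/- libraries lay below all WT libraries of their age, and the averaged difference was -0.73 (SE 0.11, limma adjusted p = 0.00175). The table gives 1 value per gene, so it does not show which exons the remaining signal came from.

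D cyclins fell and genes of mitosis rose. D cyclins are the regulatory partners of CDK4 and CDK6 and respond to growth signals. *Ccnd2* (ENSMUSG00000000184, chr6:127125162-127152188) read 12.26, 11.93 and 11.71 in 2-mo-old WT and 8.91 in each of the 2 p27-/- ILs. At 7 months it read 11.47 and 11.54 in WT and 8.88, 9.23 and 8.46 in p27-/- ILs. The genotypes were far apart at both ages, with an averaged difference of -2.85 (SE 0.15, limma adjusted p = 1.08e-07), a 7.23-fold lower level.

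*Ccnd1* (ENSMUSG00000070348, chr7:144929931-144939831) read 9.71, 9.62 and 9.13 in 2-mo-old WT against 6.74 and 7.30 in p27-/- ILs, and 9.02 and 8.40 against 7.43, 8.02 and 7.05 at 7 months. It fell by 1.84 (SE 0.20, limma adjusted p = 0.000256), with differences of -2.47 at 2 and -1.21 at 7 months. *Ccnd3* fell less, by 0.65 (SE 0.15, limma adjusted p = 0.0149). That call was lost after GC correction (adjusted p = 0.221), without WT 7-mo replicate 1 (adjusted p = 0.0807) and without p27-/- 2-mo replicate 1 (adjusted p = 0.0963). The kinases did not pass the test, with averaged differences of -0.33 for *Cdk4* (limma adjusted p = 0.0593) and -0.05 for *Cdk6* (limma adjusted p = 0.863). *Cdk4* differed by 0.10 at 2 months and -0.76 at 7 months.

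Of the other CDK inhibitors, *Cdkn2c*, which encodes p18 and blocks CDK4 and CDK6, rose by 0.70 (SE 0.16, limma adjusted p = 0.0136). Its call was lost without WT 7-mo replicate 1 (adjusted p = 0.0706) and without p27-/- 2-mo replicate 2 (adjusted p = 0.0694). *Cdkn1a*, which encodes p21, differed by 0.21 (limma adjusted p = 0.521), and *Cdkn1c*, which encodes p57, by -0.30 (limma adjusted p = 0.346). *Cdkn2a* and *Cdkn2b* were too low to be tested.

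Downstream of the D cyclins, 2 of 13 retinoblastoma and E2F genes and 1 of 8 G1 to S cyclin and p27 turnover genes were called. Both shares are near the 14.2% called among all tested genes. In the list of 13 retinoblastoma and E2F genes, *E2f7*, which encodes a repressive E2F, rose by 0.83 (SE 0.14, limma adjusted p = 0.00329) and was shifted alike. Its relative *E2f8* was called at 0.57 (limma adjusted p = 0.0115) with libraries that overlapped at 1 age or more, and lost its call without p27-/- 2-mo replicate 2 (adjusted p = 0.0706). None of the other 11 was called, among them *Rb1* with 0.33 (limma adjusted p = 0.0512) and *E2f1* with 0.45 (limma adjusted p = 0.104; 0.76 and adjusted p = 0.0193 after GC correction). Of 8 genes of the G1 to S cyclins and of p27 turnover, only *Ccne2*, which encodes cyclin E2, was called. It read 5.27, 5.68 and 5.85 in 2-mo-old WT against 6.15 and 5.95 in p27-/- ILs, and 5.21 and 5.46 against 6.50, 6.86 and 6.79 at 7 months, an averaged rise of 0.92 (SE 0.16, limma adjusted p = 0.00301).

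The genes of mitosis were called more often than those of any other cell cycle list. Of 35 listed, 29 were tested, 24 rose and 0 fell, and 20 were shifted alike. The shares called higher and shifted alike upward were 6.73% and 4.14% over all tested genes. All 29 had a positive averaged difference, with a median of 0.80 against -0.01 for all tested genes. The medians over the list were 0.55 at 2 months and 1.06 at 7 months. After GC correction 15 of the 29 were called, all higher, with a median of 0.64. The count was 11 without p27-/- 2-mo replicate 2, 15 without WT 7-mo replicate 1, and 18 to 24 without any other single library. The 6 not tested, which were too low, include *Cdk1*, *Plk1* and *Aurka*.

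Promoters of mitotic genes are known for CCAAT boxes, bound by NF-Y, and for the cell cycle homology region, TTTGAA, at which the DREAM and MuvB complexes act. The stretches upstream of the 3 mitosis genes that rose most are shown for that reason (RefSeq, GRCm38.p6, minus strand, 5′ to 3′), with CCAAT or its reverse ATTGG and TTTGAA or its reverse TTCAAA in capitals. They are *Mki67* at chr7:135716451-135716629, *Top2a* at chr11:99024200-99024439 and *Cenpf* at chr1:189688108-189688336, each ending at the outermost annotated start of its gene.
Mki67: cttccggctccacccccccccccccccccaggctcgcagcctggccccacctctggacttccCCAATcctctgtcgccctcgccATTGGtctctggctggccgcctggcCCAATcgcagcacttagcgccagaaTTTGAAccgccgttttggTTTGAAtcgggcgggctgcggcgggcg
Top2a: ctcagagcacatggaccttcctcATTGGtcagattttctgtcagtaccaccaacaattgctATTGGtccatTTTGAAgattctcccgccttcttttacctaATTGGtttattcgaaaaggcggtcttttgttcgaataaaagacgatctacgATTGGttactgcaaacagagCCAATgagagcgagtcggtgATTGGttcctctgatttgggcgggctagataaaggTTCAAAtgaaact
Cenpf: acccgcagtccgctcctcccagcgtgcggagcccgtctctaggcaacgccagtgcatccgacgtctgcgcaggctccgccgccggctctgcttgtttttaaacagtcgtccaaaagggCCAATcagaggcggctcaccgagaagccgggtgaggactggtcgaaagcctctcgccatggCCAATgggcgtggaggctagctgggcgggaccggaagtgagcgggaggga

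The *Mki67* stretch holds 3 CCAAT and 2 TTTGAA matches, that of *Top2a* 6 and 2, and that of *Cenpf* 2 and 0. In the 250 bases before the RefSeq start, on either strand, CCAAT was found in 34.5% and TTTGAA in 16.3% of 27025 mouse promoters. For the 10735 promoters matched to tested genes the shares were 36.3% and 10.7%. They were 39.8% and 12.9% for 410 genes that were shifted alike and higher, and 34.9% and 8.72% for 562 that were lower. Of the 17 promoters matched to mitosis genes shifted alike, 12 held CCAAT (70.6%) and 5 TTTGAA (29.4%). A match is a description of the letters and not a bound site.

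*Mki67* (ENSMUSG00000031004, chr7:135689784-135716450), the gene of the proliferation marker Ki-67, which coats mitotic chromosomes, read 6.99, 7.03 and 7.08 in 2-mo-old WT and 7.88 and 8.53 in p27-/- ILs. At 7 months it read 5.66 and 5.75 in WT and 8.89, 9.85 and 8.95 in p27-/- ILs. WT libraries were within 0.1 of each other at each age, and p27-/- libraries were higher by 1.17 at 2 and 3.52 at 7 months, which averages to 2.35 (SE 0.18, limma adjusted p = 1.19e-05).

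*Cenpf* (ENSMUSG00000026605), a kinetochore protein of late G2 and mitosis, read 6.05, 6.08 and 5.87 in 2-mo-old WT against 6.86 and 7.36 in p27-/- ILs, and 5.31 and 5.34 against 7.71, 8.73 and 8.04 at 7 months. Its averaged rise was 1.97 (SE 0.18, limma adjusted p = 8.49e-05). *Top2a* (ENSMUSG00000020914), topoisomerase II alpha, which untangles replicated chromosomes, read 6.33, 5.84 and 5.90 in 2-mo-old WT against 6.95 and 7.61 in p27-/- ILs, and 5.09 and 5.21 against 7.10, 8.49 and 7.64 at 7 months. Its averaged rise was 1.92 (SE 0.23, limma adjusted p = 0.000492). In all 3 genes 7-mo-old WT libraries were lower than 2-mo-old WT libraries, and p27-/- 7-mo replicate 2 was the highest library.

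Other mitotic genes rose too. Genes of the kinetochore and its checkpoint that were shifted alike included *Cenpe* with 1.51 (SE 0.21), *Casc5*, also called *Knl1*, with 1.38 (SE 0.19), *Ndc80* with 0.84 (SE 0.18), *Bub1* with 0.80 (SE 0.16) and *Mad2l1* with 0.58 (SE 0.15). Condensin subunits, which compact chromosomes, rose in *Smc4* by 1.42 (SE 0.15), in *Ncapg* by 1.09 (SE 0.18) and in *Smc2* by 0.95 (SE 0.13). Among spindle and cytokinesis genes, *Nusap1* rose by 1.01 (SE 0.16), *Tpx2* by 0.97 (SE 0.21), *Ect2* by 0.97 (SE 0.19), *Anln* by 0.82 (SE 0.19) and *Aurkb*, the kinase of the chromosomal passenger complex, by 0.73 (SE 0.15). The limma adjusted p of these 13 genes lay between 0.000223 for *Smc4* and 0.0209 for *Mad2l1*. After GC correction the calls of *Bub1*, *Mad2l1* and *Ect2* were lost (adjusted p = 0.0907, 0.0919 and 0.0567). Without p27-/- 2-mo replicate 2, those of *Aurkb*, *Bub1*, *Ndc80*, *Mad2l1*, *Anln* and *Tpx2* were lost (adjusted p between 0.0508 and 0.101). *Mad2l1*, *Anln* and *Tpx2* also lost theirs without WT 7-mo replicate 1 (adjusted p = 0.129, 0.0917 and 0.0728), and *Mad2l1* and *Anln* without p27-/- 2-mo replicate 1 (adjusted p = 0.0579 and 0.0714). The 5 tested genes that were not called were *Bub1b*, *Kif20a*, *Foxm1*, *Mybl2* and *Racgap1*.

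**Figure D3:**
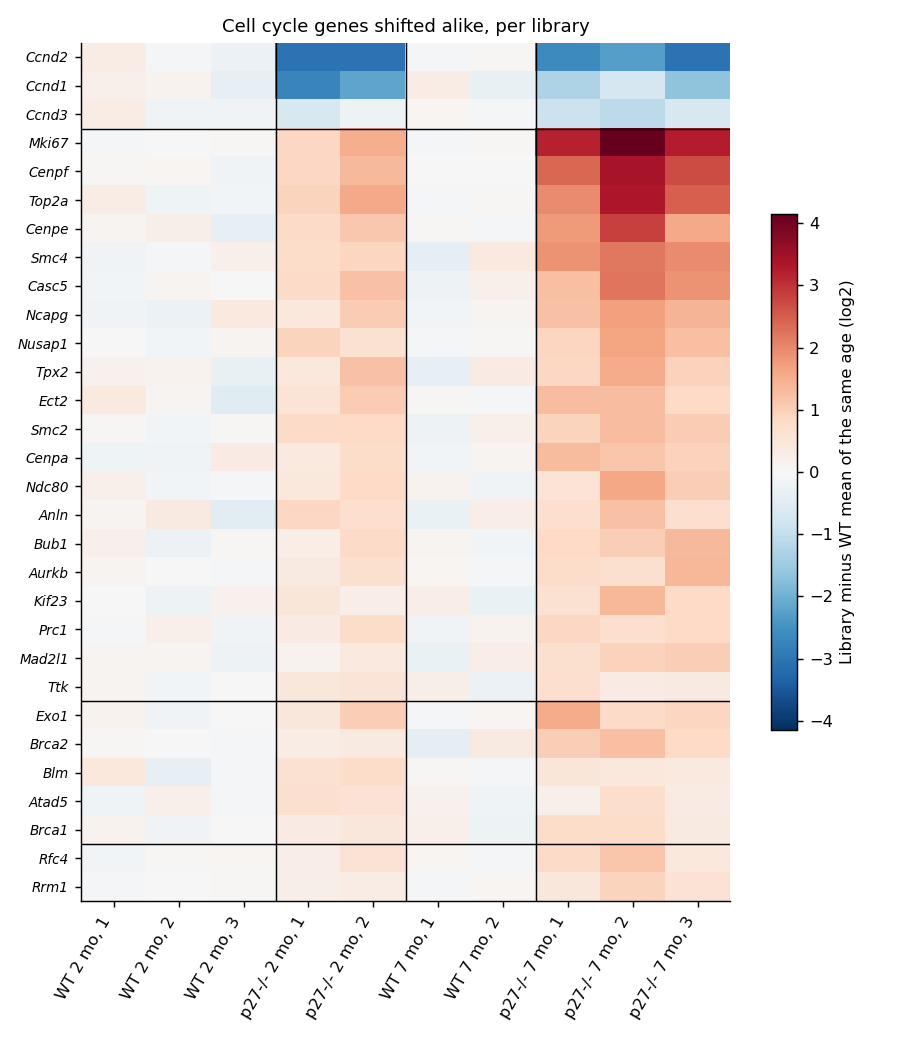
Each row is a D cyclin, mitosis, DNA repair or DNA replication gene shifted alike, leaving out those not reported by name (groups separated by horizontal lines) and each column a library, coloured by its value minus the WT mean of the same age (log2, red higher, blue lower). The 3 D cyclins are blue and the other rows red in p27-/- libraries at both ages. *Ccnd2* is the darkest blue row, and *Mki67* at 7 months is the darkest red.

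Genes of DNA repair during S phase rose with those of mitosis: 6 of 8 were called and all 6 were shifted alike, with a list median of 0.54. The shares called and shifted alike over all tested genes were 14.2% and 8.57%. *Exo1*, an exonuclease of recombination and mismatch repair, read 3.45, 3.15 and 3.26 in 2-mo-old WT against 3.74 and 4.30 in p27-/- ILs, and 2.98 and 3.15 against 4.59, 3.86 and 3.96 at 7 months. It rose by 0.90 (SE 0.17, limma adjusted p = 0.00545). *Brca2*, a mediator of homologous recombination, rose by 0.69 (SE 0.15, limma adjusted p = 0.00893), a call lost without WT 7-mo replicate 1 (adjusted p = 0.0589). *Brca1*, *Blm* and *Atad5* rose by 0.51 to 0.57, lost their calls after GC correction, which left 3 of 8, and held in 3, 5 and 7 of the 10 fits. Without WT 7-mo replicate 1, WT 7-mo replicate 2, p27-/- 2-mo replicate 1 or p27-/- 2-mo replicate 2 the count was also 3.

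DNA replication genes moved less. Of 19 tested, 5 rose, 0 fell and 3 were shifted alike, with a median of 0.39. Over all tested genes, 14.2% were called and 8.57% were shifted alike. *Rfc4*, a clamp loader subunit, and *Rrm1*, a ribonucleotide reductase subunit, rose by 0.62 (limma adjusted p = 0.023) and 0.47 (limma adjusted p = 0.0201), and both calls were lost after GC correction (adjusted p = 0.0694 and 0.0658) and held in 6 and 7 of the 10 fits. *Pcna* differed by 0.39 (limma adjusted p = 0.110) and *Mcm2* by 0.05 (limma adjusted p = 0.836). The count fell to 1 without WT 7-mo replicate 1 or either p27-/- 2-mo library, and to 3 without WT 2-mo replicate 1.

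Of 10 p53 targets, 3 rose and 1 fell, while 6.73% of all tested genes were called higher and 7.49% lower. The list median was 0.21, with -0.02 at 2 months and 0.30 at 7 months. *Pmaip1*, which encodes the pro-apoptotic protein NOXA, read 3.87, 3.78 and 4.23 in 2-mo-old WT against 5.53 and 5.14 in p27-/- ILs, and 3.63 and 3.81 against 6.27, 4.28 and 5.43 at 7 months. It rose by 1.49 (SE 0.28, limma adjusted p = 0.00505). *Cdkn1a*, the best known target, was not among those called, and the calls of *Eda2r* (0.55), *Ccng1* (0.50) and *Sesn2* (-0.56) were lost after GC correction (adjusted p = 0.328, 0.271 and 0.372) and held in 7, 4 and 2 of the 10 fits. Without WT 7-mo replicate 1 or either p27-/- 2-mo library, 1 p53 target rose and 0 fell.

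The 15 largest rises and 15 largest falls described next are those among genes shifted alike that have a symbol and a mean of 2 to the power of the value of at least 100. The rises outside the cell cycle lists come first. *Crisp1*, a cysteine-rich secretory protein best known from the epididymis, read 5.90, 6.01 and 6.27 in 2-mo-old WT against 6.49 and 7.15 in p27-/- ILs, and 5.57 and 6.49 against 8.38, 9.13 and 8.12 at 7 months. It rose by 1.64 (SE 0.22, limma adjusted p = 0.000805). *Muc6*, a gel-forming mucin best known from the stomach, read 6.46, 6.29 and 6.50 in 2-mo-old WT against 7.48 and 7.59 in p27-/- ILs, and 6.08 and 5.78 against 8.32, 7.14 and 7.94 at 7 months. It rose by 1.496 (SE 0.19, limma adjusted p = 0.000575).

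*Klk1*, a tissue kallikrein that releases kinins, rose by 1.31 (SE 0.17, limma adjusted p = 0.0007), and it belongs to a family of near-identical mouse genes among which reads can be split. *Akap6*, an anchor of protein kinase A, rose by 1.11 (SE 0.18, limma adjusted p = 0.00217), and *Prkg2*, a cGMP-dependent kinase, by 0.97 (SE 0.12, limma adjusted p = 0.000575). *Akap6* was the only 1 of these 15 rises that was larger at 2 months, 1.31, than at 7 months, 0.91. *Kif20b*, a kinesin of cytokinesis, *Mybl1*, a MYB family transcription factor, *Atad2*, a bromodomain ATPase, and *Ccdc88a*, which encodes girdin, an actin-binding signalling protein, rose by 1.23, 1.17, 1.02 and 0.94 (SE 0.15 to 0.21; limma adjusted p between 0.000677 and 0.00301).

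**Figure D4:**
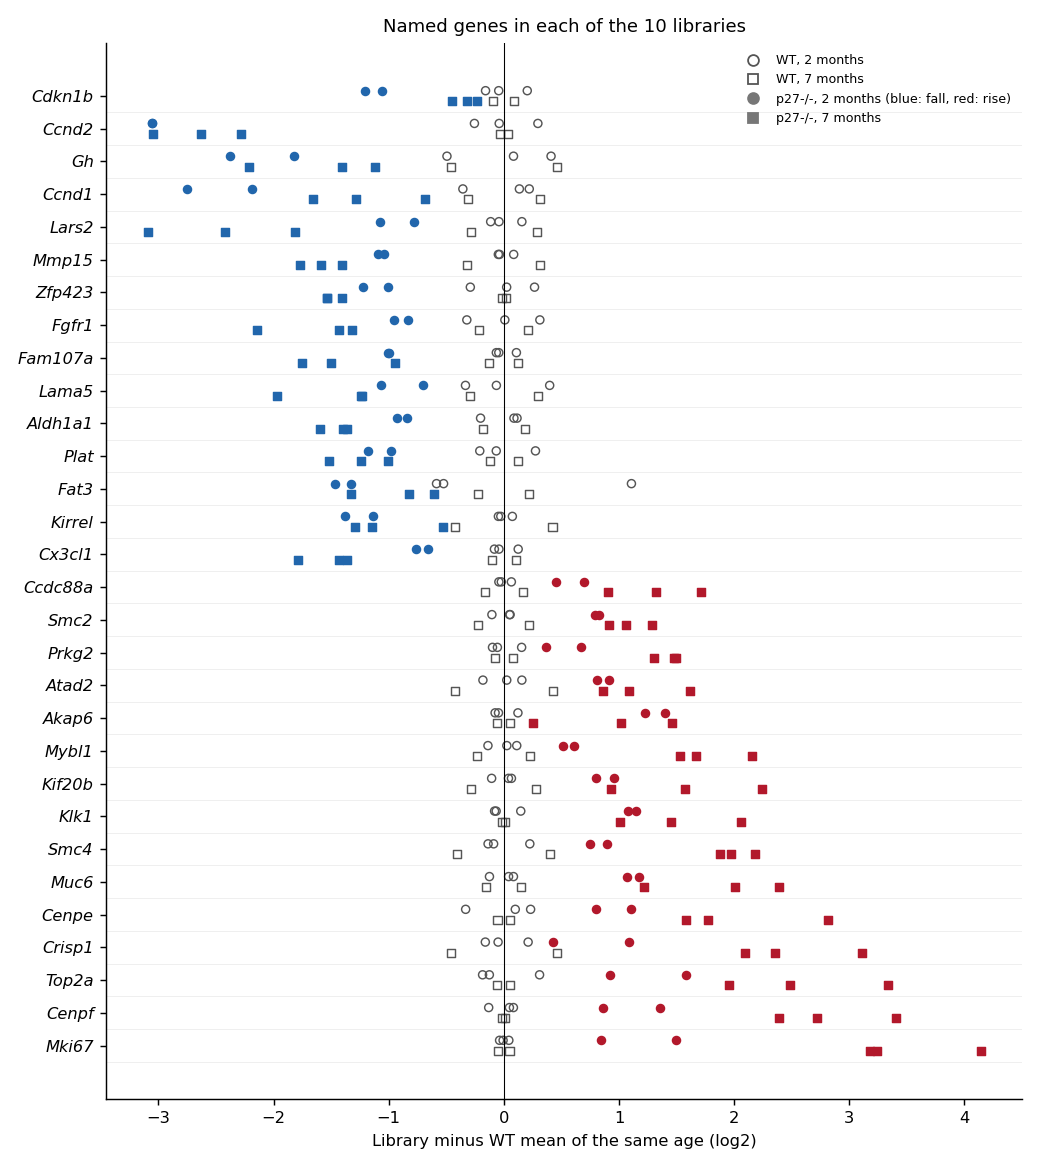
For *Cdkn1b* and the genes named here from the 15 largest falls and 15 largest rises among genes shifted alike with a symbol and a mean of 2 to the power of the value that reached 100, each library is plotted as its value minus the WT mean of the same age (log2; circles 2 months, squares 7 months, open WT, filled p27-/-). No filled point overlaps an open one at either age, which the rule for genes shifted alike requires. The falls of *Ccnd2* and the rise of *Mki67* extend farthest.

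Among the 15 falls chosen in this way, *Gh*, growth hormone of the anterior lobe, was second to *Ccnd2*. It read 13.88, 12.98 and 13.56 in 2-mo-old WT against 11.09 and 11.65 in p27-/- ILs, and 11.56 and 10.64 against 9.70, 8.89 and 9.99 at 7 months. It fell by 1.84 (SE 0.24, limma adjusted p = 0.000656). Melanotrophs do not make growth hormone, so anterior lobe markers were read beside it. Of 9 tested, 2 fell (*Gh* and *Cga*, the latter by 1.10, in 5 of the 10 fits, not separated at both ages and not called after GC correction, adjusted p = 0.0587), 0 rose, and *Prl* differed by -0.36 (SE 0.69, limma adjusted p = 0.756). The summed level of the list, on a log2 scale, ran from 13.80 to 14.85 in 2-mo-old WT, 12.62 to 14.82 in 2-mo-old p27-/-, 13.31 to 14.32 in 7-mo-old WT and 11.65 to 14.93 in 7-mo-old p27-/- ILs. The share of anterior lobe tissue in the fall of *Gh* was not tested.

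*Lars2*, the mitochondrial leucyl-tRNA synthetase, read 12.76, 12.96 and 12.68 in 2-mo-old WT against 11.73 and 12.02 in p27-/- ILs, and 13.42 and 12.85 against 10.05, 10.72 and 11.32 at 7 months. It fell by 1.69 (SE 0.20, limma adjusted p = 0.000492). The difference was larger at 7 months, -2.44, than at 2 months, -0.93.

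*Fgfr1*, a fibroblast growth factor receptor, read 8.35, 8.65 and 8.02 in 2-mo-old WT against 7.39 and 7.51 in p27-/- ILs, and 8.52 and 8.10 against 6.99, 6.88 and 6.16 at 7 months. It fell by 1.26 (SE 0.18, limma adjusted p = 0.000937). Such receptors induce genes of MAPK feedback. Of 8 tested, 2 fell and 0 rose, while 14.2% were called among all tested genes. Averaged differences were positive in 3 and negative in 5, with a median of -0.11 (-0.51 at 2 months and 0.19 at 7 months). *Etv5* fell by 0.75 (SE 0.12, limma adjusted p = 0.00176) and *Spry1* by 0.42 (limma adjusted p = 0.0453), both shifted alike. The call of *Spry1* was lost after GC correction (adjusted p = 0.622) and held in 2 of the 10 fits. *Dusp6* differed by -0.22 (limma adjusted p = 0.393).

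*Mmp15*, a membrane-type matrix metalloproteinase, fell by 1.33 (SE 0.14). *Zfp423*, a transcription factor of progenitor cells, fell by 1.303 (SE 0.13) and *Fam107a*, an actin-associated stress-responsive gene, fell by 1.20 (SE 0.14). *Lama5*, a laminin chain of basement membranes, fell by 1.181 (SE 0.19). *Aldh1a1*, a retinaldehyde dehydrogenase, fell by 1.17 (SE 0.13). *Plat*, tissue plasminogen activator, *Fat3*, an atypical cadherin, *Kirrel*, an adhesion protein of the nephrin group, and *Cx3cl1*, a membrane-bound chemokine, had averaged differences of -1.16, -1.16, -1.12 and -1.12. The limma adjusted p of these genes lay between 0.000223 for *Mmp15* and 0.0136 for *Fat3*. *Fat3* lost its call without WT 7-mo replicate 1 (adjusted p = 0.0854) and without p27-/- 2-mo replicate 1 (adjusted p = 0.0612). The other 29 of the 30 genes kept theirs whichever library was left out.

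Stem cell genes fell in part. Of 13 tested, 6 fell, 0 rose and 3 were shifted alike, and all 13 averaged differences were negative, with a median of -0.58. Over all tested genes, 7.49% were called lower and 4.43% were shifted alike and lower. The list median was -0.64 at 2 months and -0.28 at 7 months. The summed level of the list overlapped between genotypes at 7 months, with 10.46 to 10.9 in WT and 10.04 to 10.53 in p27-/- ILs. In a whole lobe, fewer cells of a type and less RNA per cell cannot be told apart. *Sox9*, a transcription factor of pituitary stem cells, read 8.33, 8.35 and 8.05 in 2-mo-old WT against 7.34 and 7.35 in p27-/- ILs, and 8.17 and 7.41 against 6.88, 7.01 and 6.63 at 7 months. It fell by 0.92 (SE 0.15, limma adjusted p = 0.00253), by nearly the same amount at 2 months, -0.90, and at 7 months, -0.95.

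*Cdh1*, E-cadherin, which holds epithelial cells together, fell by 1.01 (SE 0.16, limma adjusted p = 0.00202), and *Cpxm2*, a secreted carboxypeptidase-like protein of these cells, by 1.10 (SE 0.15, limma adjusted p = 0.000937). *Sox2*, which marks the stem cells and is also present in melanotrophs, read 7.75, 7.41 and 7.26 in 2-mo-old WT against 7.11 in each p27-/- IL, and 6.97 and 6.58 against 7.11, 6.68 and 7.03 at 7 months. The genotypes overlapped at 7 months, and *Sox2* differed by -0.10 (SE 0.14, limma adjusted p = 0.682). *S100b*, a glial-type marker of the same cells, differed by -0.27 (limma adjusted p = 0.264). After GC correction 4 of the 13 were called, and without WT 7-mo replicate 1 the count was 3. The other 3 called, *Nes*, *Krt18* and *Cdh26* (-0.76, -0.70 and -0.60), held in 9, 4 and 6 of the 10 fits, and *Krt18* and *Cdh26* lost their calls after GC correction (adjusted p = 0.189 and 0.0915).

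Notch pathway genes also fell. Of 13 tested, 6 fell, all of them shifted alike, and 0 rose. The share shifted alike and lower was 4.43% over all tested genes. *Notch1*, a receptor, read 7.28, 7.15 and 6.79 in 2-mo-old WT against 6.01 and 6.25 in p27-/- ILs, and 7.34 and 6.95 against 6.47, 6.28 and 6.12 at 7 months. It fell by 0.90 (SE 0.15, limma adjusted p = 0.00255), and the receptor *Notch2* fell by 0.72 (SE 0.11, limma adjusted p = 0.00179). The other 4 were *Jag2*, a ligand, and the transcriptional targets *Hey1*, *Hey2* and *Heyl*, with falls of 0.62, 0.83, 0.62 and 0.58.

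The ligands *Jag1* and *Dll1* differed by -0.28 (limma adjusted p = 0.266) and 0.17 (limma adjusted p = 0.444), and the target *Hes1* by -0.26 (limma adjusted p = 0.278). *Jag2* and *Heyl* lost their calls after GC correction (adjusted p = 0.253 and 0.232), and *Hey1* lost its call without WT 7-mo replicate 1 (adjusted p = 0.0649). *Jag2*, *Hey2* and *Heyl* held in 7, 2 and 8 of the 10 fits. The count of called genes was 2 without WT 7-mo replicate 1 and 3 without p27-/- 2-mo replicate 2.

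Endothelial cells also express Notch receptors and *Hey* genes. Of 8 tested endothelial markers, 0 were called, with a median of -0.35, which was -0.66 at 2 months and -0.01 at 7 months. Their summed level ran from 8.52 to 9.05 in 2-mo-old WT against 8.01 to 8.07 in p27-/- ILs, and from 7.92 to 8.44 against 7.94 to 8.47 at 7 months, while *Cldn5* was among the lowest values of the table. The part of vessels in the Notch values was not tested.

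In the WNT pathway 6 of 16 tested genes fell and 1 rose, while 7.49% of all tested genes were called lower and 6.73% higher. *Dkk3*, a secreted modulator, fell by 1.12 (SE 0.13, limma adjusted p = 0.000405), about as much at 2 months, -1.17, as at 7 months, -1.06. *Tcf7l2*, a nuclear effector of WNT signalling, read 8.05, 8.05 and 7.81 in 2-mo-old WT against 7.63 and 7.37 in p27-/- ILs, and 8.40 and 7.87 against 6.90, 7.03 and 6.90 at 7 months, a fall of 0.83 (SE 0.13, limma adjusted p = 0.00196). *Sfrp5*, a WNT antagonist, and *Ctnnb1*, beta-catenin, were the other 2 shifted alike (-0.72 and -0.35), and both lost their calls after GC correction (adjusted p = 0.128 and 0.144) and held in 8 and 1 of the 10 fits. Without WT 7-mo replicate 1 or p27-/- 2-mo replicate 1, 3 WNT genes fell. The antagonist *Sfrp1* was called at 1.10 (SE 0.23, limma adjusted p = 0.00857) without being separated at both ages. It lost its call without WT 7-mo replicate 1 (adjusted p = 0.066) or p27-/- 2-mo replicate 1 (adjusted p = 0.0564).

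Cytoskeleton and adhesion genes fell more often than they rose. Of 23 tested, 10 fell and 2 rose, and 5 and 2 of these were shifted alike. The shares called lower and higher over all tested genes were 7.49% and 6.73%. *Actn1*, alpha-actinin, which crosslinks actin at adhesions, read 7.05, 7.05 and 6.78 in 2-mo-old WT against 6.35 and 6.08 in p27-/- ILs, and 7.15 and 6.92 against 6.19, 6.47 and 6.19 at 7 months. It fell by 0.75 (SE 0.14, limma adjusted p = 0.00433), by 0.74 at 2 months and by 0.75 at 7 months. The others shifted alike were *Myh9*, non-muscle myosin, *Actn4*, *Actb*, beta-actin, and *Ctnna1*, alpha-catenin, which fell by 0.57, 0.55, 0.46 and 0.38.

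The 2 rises were the kinases that RHOA activates. *Rock1* rose by 0.77 (SE 0.14, limma adjusted p = 0.00433) and *Rock2* by 0.75 (SE 0.16, limma adjusted p = 0.00843), the latter not called without WT 7-mo replicate 1 (adjusted p = 0.0664) or p27-/- 2-mo replicate 1 (adjusted p = 0.0572). *Rhoa* itself differed by 0.02 (limma adjusted p = 0.924). After GC correction 3 falls remained called, with *Actn1* among them, besides both rises, and the calls of *Myh9*, *Actn4*, *Actb* and *Ctnna1* were lost (adjusted p = 0.0605, 0.0678, 0.0704 and 0.0615), which held in 9, 8, 8 and 7 of the 10 fits. The count of falls was 1 without WT 7-mo replicate 1, 3 without p27-/- 2-mo replicate 1 and 5 without p27-/- 2-mo replicate 2.

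Among 26 extracellular matrix genes, 8 fell and 1 rose, but only *Prelp* and *Col4a1* were shifted alike. Over all tested genes, 14.2% were called and 8.57% were shifted alike. *Prelp*, a leucine-rich proteoglycan that anchors basement membranes, read 10.09, 10.54 and 10.30 in 2-mo-old WT against 8.93 and 9.11 in p27-/- ILs, and 10.11 and 9.70 against 9.22, 9.60 and 9.20 at 7 months. It fell by 0.92 (SE 0.13, limma adjusted p = 0.00102), and *Col4a1*, a basement membrane collagen, by 0.63 (SE 0.14, limma adjusted p = 0.0109; lost after GC correction, adjusted p = 0.128, and held in 8 of the 10 fits). Of 5 tested pericyte and fibroblast markers, *Pdgfra*, a receptor of fibroblasts, fell by 0.76 (SE 0.15, limma adjusted p = 0.00579), and 0 rose. The summed level of those markers ran from 9.71 to 10.21 in 2-mo-old WT against 9.08 to 9.15 in p27-/- ILs, and from 9.46 to 9.53 against 9.85 to 10.35 at 7 months. It was therefore lower in p27-/- at 2 months and higher at 7 months, and its part in the matrix values was not tested. After GC correction 1 matrix gene was called lower and 1 higher, and only the higher 1 was shifted alike. Without WT 7-mo replicate 1 or p27-/- 2-mo replicate 1 the count of matrix falls was 1, without WT 2-mo replicate 2 or p27-/- 2-mo replicate 2 it was 3, and without p27-/- 7-mo replicate 1 it was 5.

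Melanotroph identity genes passed the test about as often as all tested genes. The lobe carried its defining markers in all libraries: *Pomc*, the hormone precursor, read 15.45 to 17.09 and *Pax7*, the melanotroph selector factor, 11.02 to 11.56. Of 19 genes of melanotroph identity and POMC processing, 3 fell and 0 rose, and the median averaged difference was 0.02. Among all tested genes 14.2% were called. After GC correction 2 of the 19 were called lower and 1 higher. *Pcsk1n*, an inhibitor of the convertase PC1, read 8.84, 9.22 and 8.45 in 2-mo-old WT against 8.25 and 8.20 in p27-/- ILs, and 8.85 and 8.16 against 7.36, 7.09 and 7.60 at 7 months, a fall of 0.88 (SE 0.17, limma adjusted p = 0.00552). *Chga*, chromogranin A of secretory granules, fell by 0.64 (SE 0.16, limma adjusted p = 0.0179), a call lost after GC correction (adjusted p = 0.157), without WT 7-mo replicate 1 (adjusted p = 0.119) and without p27-/- 2-mo replicate 1 (adjusted p = 0.111). The count of falls was 1 without WT 7-mo replicate 1 or p27-/- 2-mo replicate 1, and 5 without WT 2-mo replicate 3 or WT 7-mo replicate 2.

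*Pomc* read 16.53, 17.09 and 16.78 in 2-mo-old WT against 15.89 and 16.17 in p27-/- ILs, and 16.25 and 16.12 against 15.45, 15.63 and 16.11 at 7 months. All p27-/- libraries were below all WT libraries of their age, though by 0.01 between the nearest 2 at 7 months, and the averaged difference of -0.61 (SE 0.22) did not pass the test (limma adjusted p = 0.0756). *Tbx19*, the factor that activates *Pomc*, differed by -0.07 (limma adjusted p = 0.726), *Pax7* by -0.15 (limma adjusted p = 0.341) and *Pcsk2*, the convertase that yields melanocyte-stimulating hormone, by 0.25 (limma adjusted p = 0.230).

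Of 20 genes of exocytosis and excitability, 2 rose and 1 fell, near the share of 14.2% called among all tested genes. *Syt1*, the calcium sensor of vesicle fusion, rose by 0.51 (limma adjusted p = 0.0213) and *Stx1a*, a syntaxin of the fusion machinery, fell by 0.48 (limma adjusted p = 0.0361), both shifted alike. Neither was called after GC correction (adjusted p = 0.0825 and 0.52), and the calls held in 6 and 3 of the 10 fits.

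Of 14 HIF-1 targets, 3 fell and 0 rose. *Eno1*, a glycolytic enolase with a near-identical copy in the mouse genome that can share its reads, fell by 0.69 (SE 0.14, limma adjusted p = 0.00843), and *Ndrg1*, a hypoxia-responsive gene, by 0.60 (SE 0.15, limma adjusted p = 0.0184). Both were shifted alike, and *Eno1* lost its call without WT 7-mo replicate 1 (adjusted p = 0.0573), while *Ndrg1* held in 7 of the 10 fits. No HIF-1 target was called without WT 7-mo replicate 1, and 1 without either p27-/- 2-mo library. Among all tested genes 14.2% were called. Of 9 immediate early genes only *Jun*, a subunit of AP-1, was called, at -0.75 (limma adjusted p = 0.0139). It was not separated at both ages, and its call held in 7 of the 10 fits and was lost after GC correction (adjusted p = 0.0959).

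**Figure D5:**
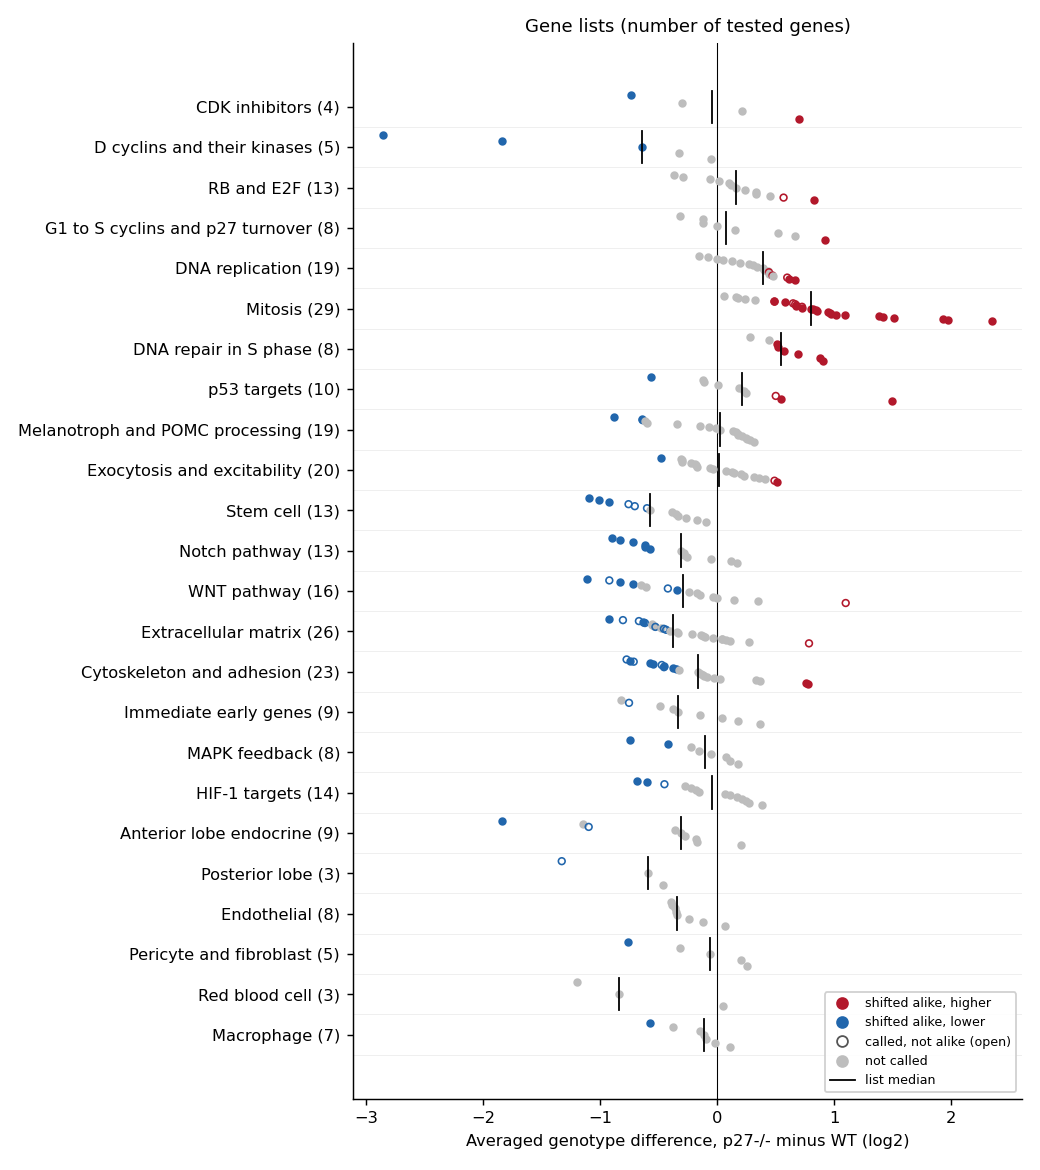
Each point is a tested gene of a list (rows, number tested in brackets), placed by its averaged p27-/- minus WT difference (log2), filled red or blue if shifted alike, open if called only and grey if not called, with the list median as a black bar. The mitosis list lies wholly above 0 with a median of 0.80, and the stem cell list wholly below 0 with a median of -0.58.

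In each list of markers of other cell types, 0 or 1 gene was shifted alike. These lists held 3 to 9 tested genes, too few to set such counts against the 8.57% of all tested genes. Of 7 tested macrophage markers *Csf1r*, the macrophage growth factor receptor, fell by 0.57 (limma adjusted p = 0.0277), which was lost after GC correction (adjusted p = 0.193) and held in 3 of the 10 fits. Of 3 posterior lobe markers *Col25a1* fell by 1.33 (limma adjusted p = 0.0432) without being separated at both ages, a call that held in 4 of the 10 fits and was lost after GC correction (adjusted p = 0.0643), and *Oxt* and *Rax* were too low to be tested. The summed posterior lobe level was 7.86 to 10.04 in 2-mo-old WT, against 6.65 to 6.66, 6.93 to 7.54 and 6.32 to 7.84 in the other groups. Of 3 red blood cell genes 0 were called. *Xist*, read as a sign of female tissue, was high in 2 of 5 libraries of each genotype, but in both WT libraries at 7 months and no WT library at 2 months. The summed level of Y chromosome genes was 6.88 to 7.57 in 7-mo-old WT against 10.86 to 10.97 in 2-mo-old WT ILs. The study lists 1 female and 1 male among its 7-mo-old WT animals, which differs from this reading, and the reason was not tested. With *Xist* as a covariate, 671 of 686 higher and 715 of 733 lower genes shifted alike were still called. Non-overlap was read on values without the covariate, so it was not retested.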

How the data were processed

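Total RNA of dissected ILs was sequenced in 10 libraries. By the study's methods, the authors amplified cDNA with the Ovation RNA-seq System V2, aligned reads with STAR (version 2.5.2a), counted them per gene with RSEM (version 1.3.30) against the Ensembl GRCm38 annotation without strand, and normalised the counts with DESeq2 (version 1.18.1). The table the authors deposited holds log2 values. The transform is not named, and the spread of low values shrinks as in a regularised log, so differences of low genes are understated. Counts could not be recovered, which leaves the depth of each library unknown and excludes a count test. The study's methods give only an average number of reads aimed at per sample. Without strand, overlapping and antisense genes cannot be told apart.

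Groups and replicate numbers came from the sample titles. Genes whose back-transformed values (2 to the power of the deposited value) averaged at least 10 were fitted in R 4.3.3 with limma 3.58.1, with each group as a coefficient, 6 residual degrees of freedom, a mean-variance trend, and the contrast of the 2 genotype differences averaged with equal weight. No pseudocount was needed, although the plan allowed for one. The genes named are *Cdkn1b*, the 15 largest rises and 15 largest falls among genes shifted alike with a mean of at least 100 and a symbol other than a predicted or Riken one, and members of 27 gene lists. A few of these genes are counted but not reported by name here. Members, lists and the naming rule were chosen with earlier results of these data known. Symbols were found for 27874 of 39021 IDs, and positions and promoters are those of RefSeq on GRCm38.p6, matched by symbol. Exonic GC content came from another build (NCBIM37), for 14172 tested genes (85.6%), and the correction subtracted each library's loess curve (span 0.3) of deviations against GC content. Same-numbered libraries did not deviate together (Pearson correlations of -0.181 to 0.12), so replicate numbers were not treated as pairs.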

Additional observations from a re-analysis of the deposited data

How the results depend on the processing

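The averaged contrast called 2354 genes and 1419 were shifted alike. GC correction gave 733 and 539, with the *Xist* covariate 871 and 593, and with the replicate block 865 and 579. Correction tests fewer genes, but those alone, uncorrected (an alternative chosen after seeing the data), gave 2264 and 1317. No filter gave 1166 and 899. Genotype plus age gave 1303 calls and genotype alone 1560. Requiring the larger difference to be at most 2 times the smaller left 862 genes. Library quality weights gave 39 interaction calls, and rescaling without mitochondrially encoded genes 6, against 0. Leaving out each library gave 500 to 2844 calls, 430 to 2219 genes shifted alike and 0 to 47 interaction calls. The cause of these changes was not tested. The replicate block alone gave 2515 calls and 1422 genes shifted alike. Neither the block nor the *Xist* covariate entered the check of non-overlap, so they retested the calls only. Replicate numbers are shared in the titles only, so the block pairs nothing known. Among the named and listed genes that were called, no averaged difference changed sign under any of these alternatives. Leaving out a library lost 300 of 1400 calls of these genes, and the other alternatives lost 318 of 2343. The unknown depth of each library and the 2 or 3 libraries per group limit what small differences can show.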

Other observations

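Mitochondrially encoded genes behaved unlike the genes described above. Of 13 tested, 11 were called higher in the averaged contrast (limma), but 0 were shifted alike. The count was 5 after GC correction (median 0.65), 2 with genotype plus age, 3 with genotype alone, 5 without WT 7-mo replicate 1 and 7 without p27-/- 2-mo replicate 1. Their median difference was -0.08 at 2 months and 2.11 at 7 months, so the averaged value of 1.06 stands for 1 age. Back-transformed, these genes made up 19.3% to 48.0% of a library, with 38.7%, 48.0% and 45.2% in 7-mo-old p27-/- ILs against 19.3% and 27.98% in 7-mo-old WT, and 24.2% to 41.1% in the 5 libraries at 2 months.

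IDs without a symbol, or with a predicted or Riken name, made up 224 of the 686 higher genes but 30 of the 733 lower ones. ENSMUSG00000095547 was higher by 3.14 (SE 0.34) and *Gm10801* by 3.05 (SE 0.35), from 1.24 and 1.28 at 2 months to 5.03 and 4.82 at 7 months. *Gm10801* belongs to a family of near-identical predicted genes among which reads can be split. ENSMUSG00000105361 was lower by 2.94 (SE 0.53), and *6330403K07Rik* by 1.08 (SE 0.22). The call of *6330403K07Rik* held in 9 of the 10 fits, and its averaged difference was -0.80 without WT 7-mo replicate 1. Called genes with opposite signs at the 2 ages numbered 86 of 2354.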
